A study of Mus musculus with 4 samples.

Results

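Immediate early genes and NF-kB feedback genes were followed in single-cell RNA from the inflamed mouse joint. The set holds 32 named genes, and all 32 were rows of each of the 4 deposited count matrices, out of 13036 genes listed in at least 1 of them. The members were 7 AP-1 and related leucine zipper factors, 8 zinc finger and nuclear receptor factors and 3 immediate early response proteins. The rest were 3 proteins of RNA decay and growth arrest, 8 of signalling feedback and cell survival, and 3 NF-kB feedback genes, Nfkbia, Tnfaip3 and Nfkbiz. The cells were CD45+CD11b+Ly6G- mononuclear cells sorted from the synovial tissue of hind paws of Cx3cr1creER:tdTomato mice. In these mice a tamoxifen-inducible Cre under Cx3cr1 control switches on a red reporter, and every group, the controls included, had received tamoxifen, 4 mg/ml given in 2 doses within 48 h. The serum that transfers K/BxN arthritis followed 4 weeks later. Cells came from steady state (day 0) and from days 1, 2 and 5 after the serum. There was 1 library per day, from a number of mice not stated in the labels, so a day and its library cannot be told apart. Differences between days therefore rest on single libraries and were not tested, and the 95% intervals reflect the counting of UMIs alone.

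Immediate early genes are transcribed within minutes of a stimulus, from factors already present in the cell, and many of their RNAs are short-lived. The AP-1 proteins Fos and Jun and the Egr zinc fingers then drive later genes, while Dusp1 removes phosphate from MAP kinases and Zfp36 marks cytokine RNAs for decay. NF-kB induces its own inhibitors, among them IκBα (gene Nfkbia) and A20 (gene Tnfaip3), which end its activity. In macrophages these genes respond to microbial products and cytokines, and they are also known to respond to enzymatic digestion and sorting of tissue.

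Levels are given as CPM, the UMIs of a gene scaled to the total UMIs of the barcodes kept, which had at least 500 genes and under 10% mitochondrial UMIs. The numbers of barcodes kept were 3715, 4642, 2722 and 3235 at days 0, 1, 2 and 5, with 4347517, 18373038, 12159063 and 14901661 UMIs. The day 0 library stood apart. Its kept barcodes had a median of 1057 UMIs, against 3607.5, 4183.5 and 3897 on the later days, and 3760 of its 7542 barcodes fell under 500 genes. Its Actb level was 30105 CPM, against 7241, 7537 and 8465 CPM at days 1, 2 and 5. Median mitochondrial shares were 3.03%, 2.59%, 2.58% and 2.65%. Between 13 and 53 barcode sequences were shared by any pair of libraries. Ptprc, which encodes CD45, lay between 103 and 250.3 CPM in barcodes with only Sparc, only Cd163 or only H2-Aa, and Itgam, which encodes CD11b, between 98.4 and 268 CPM. Csf1r, the macrophage growth factor receptor, lay between 400.6 and 1299 CPM there. The 7 fibroblast markers summed to 45.5, 124, 95.2 and 102 CPM at days 0, 1, 2 and 5.

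The sequence before the start site was examined because the members are known as targets of CREB, SRF and NF-kB. RefSeq promoter sequences (GRCm38.p6) were matched by symbol for 28 of the 32 members, and the 250 bases before each start were searched on both strands. Egr1, Egr3, Ier2 and Nfkbiz had no match. Sites farther from the start were not searched, so a site not found here may lie outside the window. The windows of 6 members are shown, those whose levels the results turn on: Fos and Junb of AP-1, Dusp1, Ier3, Nfkbia and Zfp36. The windows are Fos at chr12:85473640-85473889 on the plus strand, Junb at chr8:84978749-84978998 on the minus strand and Dusp1 at chr17:26508473-26508722 on the minus strand. The others are Ier3 at chr17:35821463-35821712 on the plus strand, Nfkbia at chr12:55492648-55492897 on the minus strand and Zfp36 at chr7:28379229-28379478 on the minus strand. Each is printed 5′ to 3′ in the direction of transcription and ends at the base before the start. Capitals mark a TGACG element of the CREB and ATF site in Fos, Junb and Dusp1, which also holds the full TGACGTCA, an NF-kB site in Fos, Ier3 and Nfkbia, a CArG box (the site of SRF) in Zfp36, and TATAAA in Fos.
Fos: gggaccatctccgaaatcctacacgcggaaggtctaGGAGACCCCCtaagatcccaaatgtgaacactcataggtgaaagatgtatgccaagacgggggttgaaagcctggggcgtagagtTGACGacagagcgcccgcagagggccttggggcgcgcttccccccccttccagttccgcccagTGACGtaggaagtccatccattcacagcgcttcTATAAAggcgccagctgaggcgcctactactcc
Junb: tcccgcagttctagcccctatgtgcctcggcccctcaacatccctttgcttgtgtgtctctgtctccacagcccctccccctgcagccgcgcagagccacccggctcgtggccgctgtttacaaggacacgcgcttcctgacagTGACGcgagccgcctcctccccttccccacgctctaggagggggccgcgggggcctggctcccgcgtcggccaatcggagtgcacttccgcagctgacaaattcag
Dusp1: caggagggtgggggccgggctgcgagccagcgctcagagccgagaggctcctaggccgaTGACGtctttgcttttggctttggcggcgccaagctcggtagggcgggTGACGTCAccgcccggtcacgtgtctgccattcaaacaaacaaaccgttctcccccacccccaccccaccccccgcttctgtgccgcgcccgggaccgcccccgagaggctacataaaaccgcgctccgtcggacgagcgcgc
Ier3: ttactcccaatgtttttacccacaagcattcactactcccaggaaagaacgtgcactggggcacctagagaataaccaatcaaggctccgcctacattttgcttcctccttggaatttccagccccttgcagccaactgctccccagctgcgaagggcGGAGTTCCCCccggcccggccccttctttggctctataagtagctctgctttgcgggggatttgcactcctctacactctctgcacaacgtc
Nfkbia: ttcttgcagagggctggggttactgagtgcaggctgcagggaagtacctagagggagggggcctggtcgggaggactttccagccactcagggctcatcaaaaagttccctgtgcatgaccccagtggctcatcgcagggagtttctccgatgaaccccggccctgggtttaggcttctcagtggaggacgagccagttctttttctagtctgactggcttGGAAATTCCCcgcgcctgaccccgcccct
Zfp36: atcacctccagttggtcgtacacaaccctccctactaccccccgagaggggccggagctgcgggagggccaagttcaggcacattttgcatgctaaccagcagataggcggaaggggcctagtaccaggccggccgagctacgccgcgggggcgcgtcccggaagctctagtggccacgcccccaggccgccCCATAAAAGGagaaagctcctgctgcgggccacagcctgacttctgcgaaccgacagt

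A TGACG element stood in the window of 15 of 28 members (53.6%), against 19.8% of the 27025 genes of the table. The full palindrome TGACGTCA, which also counts as TGACG, stood in 4 of 28 members (14.3%) against 1.77%, namely Btg2, Dusp1, Maff and Ppp1r15a. An NF-kB site was found for 6 of 28 members (21.4%), namely Fos, Fosb, Ier3, Maff, Nfkbia and Tnfaip3, against 4.46% of all genes. The AP-1 letters TGANTCA were found for 3 of 28 members (10.7%) against 7.82%, a CArG box for 2 of 28 members (7.14%) against 1.62%, and TATAAA for 5 of 28 members (17.9%) against 14.3%. The 28 members had 43 start sites, and genes with several starts had more chances of a match. A match is a description of letters and says nothing of binding in these cells.

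Over whole libraries the members were lowest at day 1 and about 1% of UMIs on the other days. On days 0, 1, 2 and 5 they made up 0.986% (0.977 to 0.996%), 0.749% (0.745 to 0.753%), 1.08% (1.07 to 1.08%) and 1.09% (1.09 to 1.10%) of UMIs. The AP-1 group held 0.369%, 0.309%, 0.469% and 0.451% at days 0, 1, 2 and 5, and the NF-kB feedback genes held 0.0863%, 0.0441%, 0.0735% and 0.131%. The AP-1 group thus stood above its day 0 share at days 2 and 5, and the NF-kB feedback genes only at day 5 of the 3 later days. Single genes weighed heavily in both. Fos went from 1257 CPM at day 0 to 2130 and 2030 CPM at days 2 and 5. Of the measured AP-1 factors, 4 lay above and 2 below day 0 at day 2, and 4 above and 3 below at day 5. Nfkbia went from 650 to 1075 CPM at day 5, while Tnfaip3 was at 1.17-fold (1.03 to 1.34) and Nfkbiz at 1.04-fold (0.954 to 1.14). Zinc finger and nuclear receptor factors held 0.147%, 0.132%, 0.186% and 0.138%, with their highest share at day 2. Immediate early response proteins held 0.103%, 0.0534%, 0.0717% and 0.0787% and were highest at day 0. RNA decay and growth arrest genes held 0.0909%, 0.0793%, 0.108% and 0.0966%, and signalling feedback and survival genes 0.191%, 0.131%, 0.167% and 0.198%. Fos and Junb together gave 24.4%, 28.2%, 30.2% and 30.2% of all member UMIs, so the summed shares weigh these genes most.

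Among the AP-1 factors, Fos, the partner of the Jun proteins, stood at 1257 (1224 to 1291), 1312 (1295 to 1329), 2130.0 (2104 to 2156) and 2030.4 (2008 to 2053) CPM on days 0, 1, 2 and 5. Its levels of days 2 and 5 lay well above those of days 0 and 1. Junb, which forms AP-1 with Fos, stood at 1154, 802, 1117 and 1269 CPM on days 0, 1, 2 and 5, with its low point at day 1. Jun stood at 624, 491, 673 and 587 CPM on days 0, 1, 2 and 5, also lowest at day 1. Atf3, a stress-induced repressor of cytokine genes, stood at 382, 244, 464 and 329.7 CPM on days 0, 1, 2 and 5. It was highest at day 2, where Fosb (89.7, 100.4, 170.5 and 146 CPM at days 0, 1, 2 and 5) was highest as well. Jund, known as the more constant member of the Jun family, ranged only from 132 to 172 CPM. Maff, a small Maf protein, was scarce, with 7.36, 2.23, 2.14 and 10.9 CPM at days 0, 1, 2 and 5.

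Of the zinc finger and nuclear receptor factors, Klf6 stood at 650.5, 572, 794 and 616 CPM on days 0, 1, 2 and 5. Its highest level was at day 2, and the same day was highest for Klf2 (176, 206, 273 and 179.5 CPM at days 0, 1, 2 and 5), Klf4 (290.1, 288, 342 and 210.0 CPM), Egr1 (181, 134, 228 and 153 CPM) and Egr2 (26.2, 16.7, 28.7 and 18.6 CPM). Nr4a1, an orphan nuclear receptor that restrains inflammatory genes in macrophages, was at 114, 82.0, 161 and 157 CPM on the same days. Csrnp1, by contrast, was highest at day 5, at 39.3 CPM against 15.5 to 25.5 CPM on the other days. Egr3 stayed under 10 CPM in every library.

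Ier3, a survival protein induced by NF-kB, had the widest range of the immediate early response genes, at 521 (500 to 543), 149 (143 to 155), 242 (234 to 251) and 398 (388 to 408) CPM on days 0, 1, 2 and 5. The 4 intervals do not overlap, and the levels of days 1 and 2 lay far below those of days 0 and 5. Ier5 followed the same order of days, at 101, 46.0, 51.0 and 79.5 CPM on days 0, 1, 2 and 5. Ier2 differed in that day 5 was its lowest, at 404, 339, 424 and 309 CPM on days 0, 1, 2 and 5. Zfp36, the decay factor tristetraprolin, stood at 472, 326, 509 and 495 CPM on days 0, 1, 2 and 5, so that only day 1 was low. Btg2, an antiproliferative gene, was at 249, 182, 279 and 241 CPM at days 0, 1, 2 and 5 and was likewise lowest at day 1. Zfp36l1, the paralog of Zfp36, ran the other way, with its lowest level at day 0 (188, 285, 294 and 230.2 CPM).

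In the signalling group Dusp1, the MAP kinase phosphatase, stood at 874, 592, 791 and 1006 CPM on days 0, 1, 2 and 5. It was lowest at day 1 and highest at day 5. Ppp1r15a, which restores translation after stress, was at 139.6, 69.9, 96.1 and 127 CPM at days 0, 1, 2 and 5, and Gadd45b was at 75.2, 31.8, 54.8 and 75.5 CPM on days 0, 1, 2 and 5. Both were lowest at day 1, and their day 5 levels were near those of day 0. Rhob, a small GTPase of the endosome, was 249.8 CPM at day 0 and 129 to 145 CPM on the later days. Socs3, the inhibitor of cytokine receptor signalling, ranged from 137 to 199 CPM, Mcl1, a survival protein, from 255 to 316 CPM, and the kinase Sgk1 from 79.6 to 116 CPM. Dusp2 stayed under 10 CPM in every library.

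The NF-kB feedback genes shared a low point at day 1. Nfkbia stood at 649.6 (626 to 674), 321 (313 to 329), 531 (519 to 545) and 1075 (1059 to 1092) CPM on days 0, 1, 2 and 5, with day 5 above all other days. Tnfaip3 stood at 67.4 (59.9 to 75.6), 31.7 (29.2 to 34.4), 57.1 (52.9 to 61.5) and 78.9 (74.5 to 83.6) CPM on days 0, 1, 2 and 5. Nfkbiz, an atypical IκB protein, was at 146, 87.8, 146 and 152 CPM at days 0, 1, 2 and 5 and differed little between days 0, 2 and 5.

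**Figure D1:**
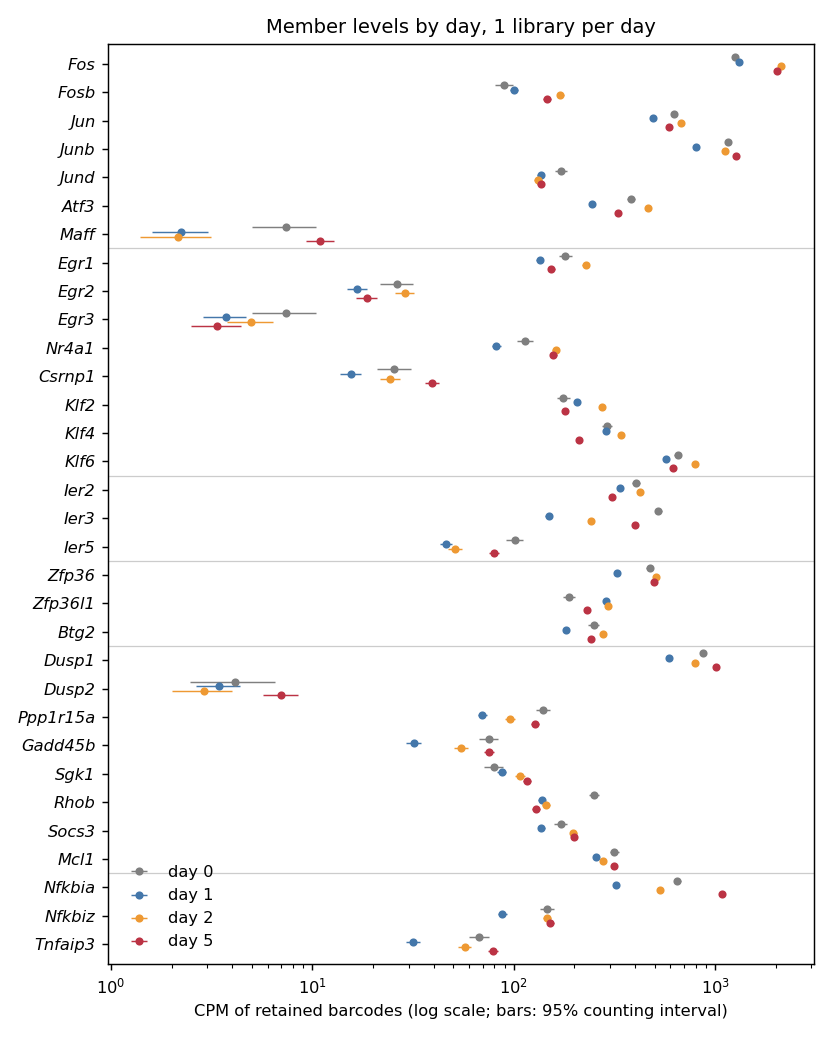
Level of each of the 32 members in each library, as CPM on a log axis, with 95% counting intervals and 1 point per day; grey lines separate the 6 roles. For Ier3, Junb, Dusp1 and Nfkbia the day 1 points lie to the left of the others, and the Nfkbia point of day 5 lies farthest right of its 4.

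In the comparison of day 1 with day 0, most measured members were lower at day 1, the first day after serum. A member was measured where 1 of the 2 libraries held at least 10 CPM, which was so for 29 of 32. Their median log2 ratio was -0.48, beside 0.15 over all 7354 genes tested. Intervals lay wholly below a ratio of 1 for 23 members and wholly above for 4. Of all 7354 genes, 1148 lay wholly below and 2676 wholly above. At least 2-fold lower were 5 members, Ier3, Gadd45b, Ier5, Tnfaip3 and Nfkbia, where 2.41% of all genes tested were. No member was 2-fold higher, where 2.57% of all genes were. Ier3 was 3.5-fold (3.31 to 3.70) lower, Gadd45b 2.36-fold (2.06 to 2.71), Ier5 2.20-fold (1.95 to 2.47), Tnfaip3 2.13-fold (1.84 to 2.45) and Nfkbia 2.02-fold (1.93 to 2.12). The 4 members above the interval were Zfp36l1, at 1.52-fold (1.41 to 1.63), Klf2, Fosb and Fos, the last at 1.04-fold (1.01 to 1.08). These ratios rest on the shallow day 0 library, and with at least 1000 genes per barcode, which left 96 barcodes at day 0, the median was -0.67. All comparisons with day 0 share that library.

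Between days 1 and 2, whose libraries were of like depth, most measured members were higher at day 2, while the median gene was level. Of 29 measured members, 25 had intervals wholly above a ratio of 1 and 0 wholly below. Their median log2 ratio was 0.53, beside -0.014 over all 7304 genes, of which 730 lay above and 973 below. No member reached 2-fold, where 0.0958% of all genes were at least 2-fold higher and 0.0685% at least 2-fold lower. The largest ratios were those of Nr4a1, 1.97-fold (1.84 to 2.1), Atf3, 1.90-fold (1.82 to 1.97), and Tnfaip3, 1.80-fold (1.61 to 2.02). Fos was 1.62-fold (1.60 to 1.65) higher, Nfkbia 1.65-fold (1.60 to 1.71), Ier3 1.63-fold (1.54 to 1.71) and Zfp36 1.56-fold (1.51 to 1.62). The members whose intervals held a ratio of 1 were Jund, at 0.969-fold (0.910 to 1.03), Zfp36l1, Rhob and Ier5. By role the medians were 0.74 for NF-kB feedback genes, 0.65 for zinc finger and nuclear receptor factors and 0.62 for RNA decay genes. They were 0.59 for AP-1, 0.42 for signalling genes and 0.32 for immediate early response proteins. The median lay between 0.48 and 0.58 under every alternative filter, weight and scaling tried.

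Against day 0, members at days 2 and 5 went both ways, and their medians lay near that of all genes. At day 2, 14 of 29 measured members lay above and 11 below the counting interval, beside 2522 and 1209 of all 7320 genes. The median log2 ratio was 0.11 beside 0.14 over all genes. Only Ier3, 2.15-fold (2.04 to 2.27) lower, passed 2-fold at day 2, where 2.98% of all genes were at least 2-fold lower and 2.77% at least 2-fold higher. Fosb was 1.90-fold (1.70 to 2.12) and Fos 1.69-fold (1.65 to 1.74) higher at day 2. At day 5, 12 of 30 lay above and 12 below, beside 2692 and 1609 of all 7419 genes, with a median of 0.015 beside 0.11. No member passed 2-fold at day 5, where 6.43% of all genes were higher and 3.34% lower by that much. Nfkbia was 1.66-fold (1.59 to 1.72) higher and Rhob 1.94-fold (1.80 to 2.1) lower at day 5. The sign of both medians depended on the setting. Median-ratio scaling, which removes the shift of all genes, gave -0.026 at day 2 and -0.10 at day 5, and it gave -0.63 at day 1.

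From day 2 to day 5 members went both ways, also within roles. Nfkbia, Tnfaip3 and Ier3 were higher at day 5, while Klf2, Klf4, Klf6, Egr1 and Egr2 were lower. Of 30 measured members, 12 lay above and 13 below the counting interval, beside 2071 and 2429 of all 7469 genes. The median log2 ratio was -0.014, beside -0.038 over all genes. At least 2-fold higher were Nfkbia, 2.02-fold (1.97 to 2.08), and Maff, 5.12-fold (3.37 to 8.07), where 4.11% of all genes were. Maff, a gene of low level on every day, lies outside the rule for named genes and is given because it is 1 of the 2. No member was 2-fold lower, where 1.07% of all genes were. Ier3 was 1.64-fold (1.57 to 1.72) higher, Csrnp1 1.62-fold (1.41 to 1.87) and Ier5 1.56-fold (1.41 to 1.72), whereas Ier2 of the same role was 1.37-fold (1.32 to 1.43) lower. Klf4 was 1.63-fold (1.56 to 1.71) lower, Egr2 1.54-fold (1.32 to 1.81), Klf2 1.52-fold (1.45 to 1.60), Egr1 1.49-fold (1.40 to 1.57) and Atf3 1.41-fold (1.35 to 1.46). Nr4a1 was at 0.972-fold (0.915 to 1.03) and Nfkbiz at 1.04-fold (0.977 to 1.11), with intervals that hold a ratio of 1. The median of zinc finger and nuclear receptor factors was -0.57 and that of NF-kB feedback genes 0.47. The monocyte markers, 7 genes that include Plac8, Ly6c2 and Chil3, summed to 259 CPM at day 2 and 1373 CPM at day 5. Barcodes that held a Plac8 UMI were also taken out of day 5 only, an alternative chosen after the data were seen. There were 826 of them, with members at 1.58% of UMIs, so a lower share without them followed from the choice. The 52 such barcodes of day 2 stayed in, and the part of these cells in the day difference was not tested. The day 5 member share was then 0.926%, the median -0.23 and no member was 2-fold higher. The log2 ratios of day 5 over day 2 were then -0.037 for Ier3, 0.27 for Tnfaip3 and 0.67 for Nfkbia.

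**Figure D2:**
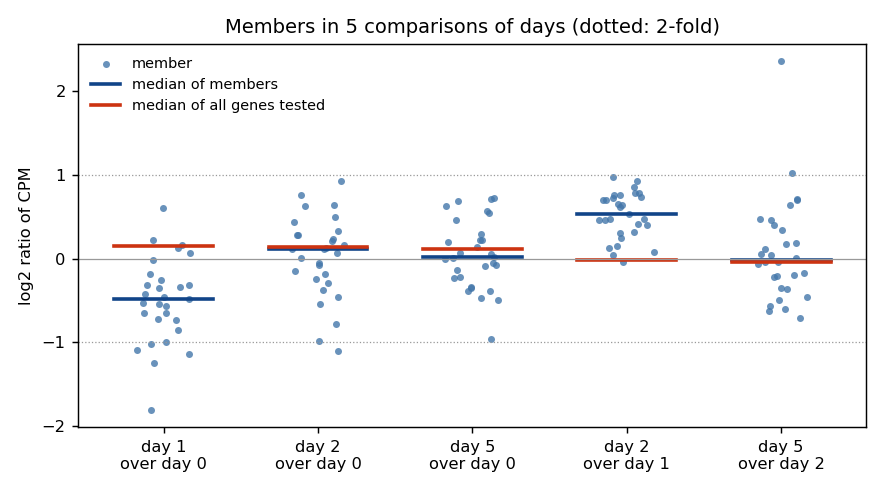
Log2 ratio of CPM of each measured member (points) in 5 comparisons of days, with the median of the members and of all genes tested as bars and dotted lines at 2-fold. The members lie mostly below 0 for day 1 over day 0 (median -0.48) and mostly above 0 for day 2 over day 1 (median 0.53).

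Genes of the same pathways outside the set gave values of their own. The 34 genes of NF-kB subunits and targets summed to 4682, 2159, 3267 and 5278 CPM at days 0, 1, 2 and 5. At day 1, 12 of 30 measured were at least 2-fold lower than at day 0 and 0 higher, beside 2.41% and 2.57% of all genes. Among the 12 were the chemokine Cxcl1, 4.03-fold (3.43 to 4.73) lower, and the cytokine Tnf, 3.86-fold (3.49 to 4.28) lower. At day 2 over day 1, 18 of 28 lay above the interval and 0 below, beside 730 and 973 of all 7304 genes. The chemokine Cxcl2 was 2.24-fold (2.16 to 2.32) higher. At day 5 over day 2, 10 of 31 were at least 2-fold higher and 0 lower, beside 4.11% and 1.07% of all genes. The cytokine gene Il1b was 12.4-fold (11.7 to 13.2) and Clec4e, a receptor of microbial lipids, 7.63-fold (6.93 to 8.43) higher. The 35 other early response genes summed to 2845, 1867, 2101 and 2834 CPM. Of these, 16 of 28 lay above and 3 below the interval at day 2 over day 1, beside 730 and 973 of all 7304 genes. At least 2-fold lower at day 1 than at day 0 were 3 of 29, beside 2.41% of all genes. Lower by most among genes of at least 50 CPM were the demethylase Kdm6b, 7.26-fold (6.48 to 8.15), and the kinase Pim1, 7.24-fold (6.70 to 7.83). At least 2-fold higher at day 5 than at day 2 were 9 of 30, beside 4.11% of all genes. Higher by most among genes of at least 50 CPM were Cebpd and Pim1, at 2.89-fold (2.54 to 3.30) and 2.88-fold (2.67 to 3.10).

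Several lists bear on how the tissue was handled, since heat shock genes are known to respond to digestion and temperature. The 15 heat shock chaperones summed to 3839.9, 3301, 3885 and 4318 CPM at days 0, 1, 2 and 5, lowest at day 1 as the members were. At day 2 over day 1, 9 of 14 measured lay above the interval and 0 below, beside 730 and 973 of all 7304 genes. Their median log2 ratio was 0.21 where the members had 0.53. The inducible chaperone Hspa1a stood at 918, 427, 625 and 429.9 CPM, highest at day 0. Metallothionein Mt2, of the 9 glucocorticoid response genes, stood at 294, 181, 271 and 111 CPM. The 10 measured reference genes had a median of -0.0080 at day 2 over day 1, and the 6 measured glucocorticoid response genes 0.086. Markers of other cells also moved. The neutrophil markers, 8 genes of which between 3 and 6 were listed in a library and neither Ly6g nor Retnlg in any, summed to 126, 34.8, 38.6 and 202 CPM, and the 5 osteoclast lineage markers to 851, 219, 295 and 1046 CPM, both lowest at day 1. Most of the neutrophil sum was Mmp9, which osteoclasts also express, at 106, 22.6, 24 and 153 CPM, while the neutrophil gene S100a8 stood at 16.6, 7.08, 7.81 and 18.1 CPM. The 6 NK or T cell markers, none of them listed on the later days, summed to 9.20, 0, 0 and 0 CPM, the 4 B cell markers to 3.91, 2.45, 3.21 and 3.89 CPM, and the 4 erythroid markers to 0, 29.2, 5.18 and 161 CPM. The nuclear-retained Malat1 and Neat1 summed to 32980.2, 36377, 38351 and 28049 CPM. The labels give no digestion or sorting times, and the part of handling and of other cells in the day differences was not tested.

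Members were unevenly spread over the barcodes of each later day and much more evenly at day 0. Each barcode was thinned to 500 UMIs, which left out none. The mean number of member UMIs among 500 was 4.79, 4.08, 5.78 and 5.96 at days 0, 1, 2 and 5, and the median was 4, 3, 4 and 4. Barcodes with at least 10 member UMIs, or 2% of the 500, made up 9.04% (8.14 to 10.0%), 10.1% (9.27 to 11.0%), 19.6% (18.1 to 21.1%) and 21.8% (20.4 to 23.2%) of the 4 libraries in that order. Barcodes with 0 or 1 member UMI made up 12.9%, 31.1%, 23.2% and 22.1%. Day 1 thus had the most member-poor barcodes. Its share at 10 or more was near that of day 0, but its 99th percentile was 23.6 UMIs against 16. Days 2 and 5 had 99th percentiles of 28 and 24.7 UMIs. The variance over the mean, 1 for pure counting, was 2.33, 5.61, 6.85 and 5.75. The tenth of barcodes richest in members held 25%, 38.4%, 35.7% and 32.3% of all member UMIs. At day 0 the barcodes under 500 genes, left out here, held members at 0.921% of their UMIs, near the 0.986% of the kept ones, and the part of free RNA in the evenness of day 0 was not tested.

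**Figure D3:**
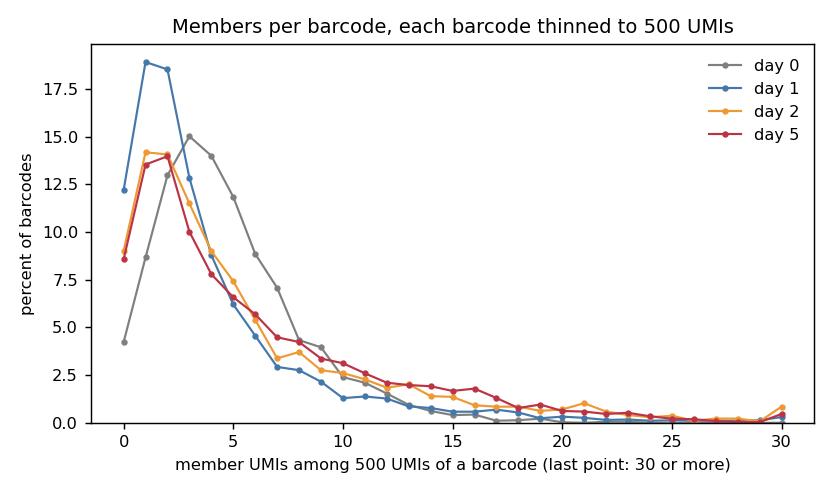
Percent of barcodes (vertical axis) with each number of member UMIs among 500 UMIs of the barcode (horizontal axis, last point 30 or more), 1 line per day. The day 0 line peaks at 3 UMIs and the lines of the later days at 1 or 2, and 19.6% and 21.8% of the barcodes of days 2 and 5 fall at 10 UMIs or more.

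Most single members were spread in the same way. The coefficient of variation beyond counting, the spread of the underlying level relative to its mean, was smallest at day 0 for 25 of 32 members and for all 10 of the most abundant. Among the exceptions were Jund, Klf4, Ppp1r15a and Csrnp1, none of them among the 10 most abundant. Fos had at least 1 UMI among 500 in 40.6, 36.6, 48.6 and 47.8% of barcodes at days 0, 1, 2 and 5, where an even spread of the same level would have given 44.6, 51.1, 68.4 and 66.6%. The gap was smallest at day 0. No cell type known to lack Fos was present to give the background of free RNA. This coefficient was 0.670, 1.42, 1.22 and 1.16 for Fos and 0.819, 1.90, 1.62 and 1.54 for Nfkbia on those days. Klf6 was the evenest of the 10 most abundant members at days 1, 2 and 5, at 0.578, 0.895, 0.896 and 0.949 over the 4 days. Atf3 and Ier3 were the most uneven of the 10 at days 1, 2 and 5, at 0.991, 2.28, 1.72 and 1.73 and at 0.851, 2.05, 1.79 and 1.91. The other 5 (Junb, Dusp1, Jun, Zfp36 and Ier2) lay between 1.12 and 1.59 on those days. Nfkbia reached 158 UMIs in 1 barcode of day 5 before thinning, where Fos reached 85.

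Within a library, barcodes rich in AP-1 RNA were rich in most other members. Barcodes were grouped by the UMIs of Fos, Fosb, Jun and Junb among their 500, and the other 28 members were read in the same 500. Barcodes with 4 or more such UMIs made up 9.42%, 12.5%, 21.7% and 22.3% of days 0, 1, 2 and 5. In them the other 28 members summed to 11200.0, 13769.8, 15348 and 14911 CPM, against 5012, 3025, 3341 and 3416 CPM in barcodes with none. The ratios were 2.23-fold (2.11 to 2.37), 4.55-fold (4.34 to 4.77), 4.59-fold (4.34 to 4.87) and 4.37-fold (4.14 to 4.60) in the order of days. The ratio was lower at day 0 than on the 3 later days, whose intervals overlap each other. At least 2-fold higher were 19 of 27 measured members, 23 of 27, 23 of 28 and 22 of 28, and none was 2-fold lower. Of all genes tested the same way, 13.3%, 8.87%, 11.0% and 8.83% were higher and 9.87%, 8.08%, 9.90% and 14.0% lower by that much. The member counts include scarce genes. Maff, Egr3 and Dusp2, where measured, reached 10 CPM only in the AP-1-rich barcodes, with at most 7 UMIs there. Egr3 of day 0, with 2 UMIs in each group, counted at 3.25-fold (0.235 to 44.8). Of all 28 other members, 21, 25, 23 and 25 had intervals wholly above 1 on days 0, 1, 2 and 5, and 0 wholly below. The same interval count over all genes is not given. Median ratios of the measured members were 2.45, 6.38, 6.29 and 4.43, beside 1.01, 0.963, 0.963 and 0.895 over all genes. Cells of a library are not replicates, and these ratios describe 1 library each.

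The members differed in how closely they went with AP-1. Atf3 stood at 84.2 CPM in barcodes of day 2 without AP-1 UMIs and at 1524 CPM in those with 4 or more, a ratio of 18.1-fold (13.1 to 25.7). On days 0, 1, 2 and 5 its ratios were 2.95-fold, 12.5-fold, 18.1-fold and 12.1-fold. Tnfaip3 had ratios of 2.26-fold (1.11 to 4.46), 17.0-fold (8.47 to 37.6), 14.8-fold (5.89 to 47.6) and 4.76-fold (2.71 to 8.77) on those days, where the barcodes of day 1 without AP-1 held 10 of its UMIs and those of day 2 held 5. Both genes were far closer to level at day 0 than at days 1 and 2. Egr1 had 2.13-fold, 10.3-fold, 10.7-fold and 8.51-fold, Zfp36 3.17-fold, 9.33-fold, 7.85-fold and 6.87-fold and Dusp1 2.56-fold, 7.97-fold, 6.83-fold and 7.73-fold. Ier3 had 2.19-fold, 8.18-fold, 7.45-fold and 9.62-fold and Nfkbia 2.48-fold, 4.81-fold, 6.17-fold and 5.36-fold. Each of these genes also had its smallest ratio at day 0. Sgk1, Rhob and Zfp36l1 stayed under 2-fold on all 4 days. Sgk1 was at 1.72-fold (0.914 to 3.13), 0.780-fold (0.448 to 1.29), 1.30-fold (0.850 to 1.98) and 1.73-fold (1.13 to 2.66), so that its interval lay above 1 at day 5 only. Rhob was at 1.23-fold (0.870 to 1.70), 1.72-fold (1.24 to 2.38), 1.68-fold (1.16 to 2.44) and 1.41-fold (0.979 to 2.03), above 1 at days 1 and 2. Zfp36l1 was at 1.70-fold (1.15 to 2.49), 1.75-fold (1.43 to 2.14), 1.17-fold (0.908 to 1.51) and 1.36-fold (1.07 to 1.73), above 1 on every day but day 2. NF-kB subunits and targets outside the set were 2.12-fold, 3.79-fold, 4.13-fold and 4.53-fold higher at days 0, 1, 2 and 5 in the AP-1-rich barcodes.

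Heat shock chaperones were 1.30-fold (1.2 to 1.41), 1.5-fold (1.40 to 1.60), 1.54-fold (1.43 to 1.65) and 1.30-fold (1.22 to 1.39) higher in the AP-1-rich barcodes of days 0, 1, 2 and 5, and the reference genes stood at 0.942-fold, 0.922-fold, 0.866-fold and 1.04-fold. Glucocorticoid response genes were 1.49-fold (1.33 to 1.68), 2.42-fold (2.22 to 2.64), 2.68-fold (2.43 to 2.97) and 1.48-fold (1.31 to 1.67) higher. Over whole libraries the metallothionein Mt1 alone gave 1284, 923, 1104 and 731 CPM of this list's 1949, 1501, 1762 and 1178 CPM. Median UMIs before thinning were 3687 without and 3097 with 4 or more AP-1 UMIs at day 1, and median mitochondrial shares 2.62% and 2.59%. Barcodes with only Plac8 made up 18.6% of the AP-1-rich and 3.37% of the AP-1-free barcodes of day 5. Barcodes with only H2-Aa made up 28%, 17.9%, 11.5% and 15.6% of the AP-1-rich barcodes of days 0, 1, 2 and 5. Of the AP-1-free barcodes they made up 21.5%, 11.2%, 10.6% and 21.6%, so that day 5 ran the other way. On days 0, 1, 2 and 5 the 7 monocyte markers stood at 0.871-fold, 2.04-fold, 1.71-fold and 3.22-fold in AP-1-rich over AP-1-free barcodes, the 7 MHC class II-high markers at 1.60-fold, 1.95-fold, 1.48-fold and 1.09-fold and the 7 fibroblast markers at 5.61-fold, 2.75-fold, 0.478-fold and 0.319-fold. The 7 markers of Cd163 macrophages stood at 0.852-fold, 0.726-fold, 0.749-fold and 0.361-fold, the 7 of lining macrophages at 0.871-fold, 0.910-fold, 0.942-fold and 0.670-fold and the 5 of the osteoclast lineage at 0.298-fold, 0.510-fold, 0.467-fold and 0.291-fold. The part of handling and of cell type in these ratios was not tested.

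**Figure D4:**
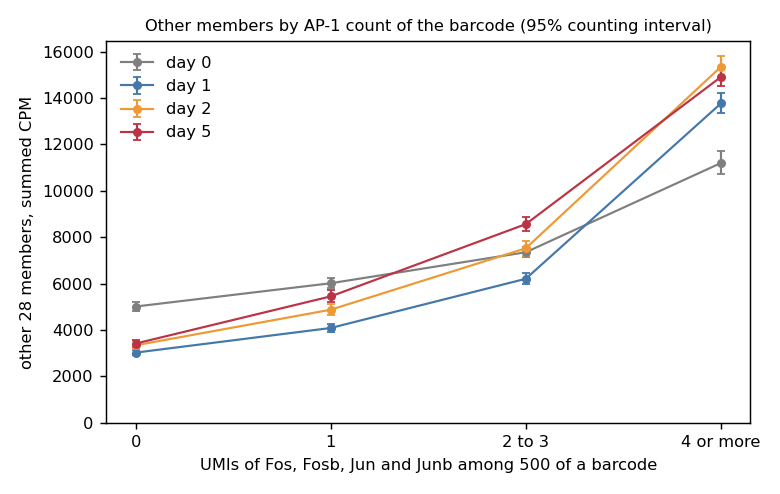
Summed CPM of the other 28 members (vertical axis) in barcodes grouped by their UMIs of Fos, Fosb, Jun and Junb among 500 (horizontal axis), 1 line per day with 95% counting intervals. All 4 lines climb from left to right, from 5012 to 11200.0 CPM at day 0 and from 3341 to 15348 CPM at day 2.

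Depth and RNA quality moved with the member share in ways that differed between libraries. With the barcodes of a library ranked into 4 equal groups by their UMIs, members in the group with fewest made up 1.06%, 1.54% and 1.30% of UMIs at days 1, 2 and 5. In the group with most UMIs they made up 0.684%, 0.942% and 0.863%. Day 0 ran the other way, from 0.916% to 1.09%. From the lowest to the highest of 4 such groups by mitochondrial share, the member share went from 0.876% to 1.07% at day 0 and from 0.983% to 1.17% at day 2. It went from 1.25% to 0.918% at day 5, and at day 1 it was 0.798% and 0.789%. Their part in the day differences was not tested.

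Members were then read in barcodes that held at least 1 UMI of just 1 of 4 markers: Sparc, of lining macrophages, Cd163, of tissue-resident macrophages, H2-Aa, an MHC class II gene, or Plac8, of blood monocytes. With only Sparc, members made up 0.890% (0.868 to 0.912%) of UMIs on day 0 (n = 625 barcodes), 0.714% (0.706 to 0.723%) on day 1 (808), 1.11% (1.10 to 1.12%) on day 2 (582) and 1.08% (1.06 to 1.09%) on day 5 (426). With only Cd163 the shares were 0.968% (0.918 to 1.02%) (128), 0.608% (0.599 to 0.618%) (854), 0.904% (0.889 to 0.919%) (407) and 0.710% (0.693 to 0.728%) (248). With only H2-Aa they were 1.04% (1.02 to 1.06%) (879), 0.963% (0.949 to 0.976%) (571), 1.06% (1.04 to 1.08%) (318) and 0.877% (0.867 to 0.888%) (634). Cd163-only barcodes had the lowest share of these groups at days 1, 2 and 5, and day 1 was below day 2 in all of them. Barcodes with several of the 4 markers, 42.3%, 33.7%, 36.9% and 35.1% of days 0, 1, 2 and 5, are not in these groups. Over all barcodes with a Cd163 UMI the share was 0.731%, 1.05% and 0.881% at days 1, 2 and 5. With a Sparc UMI it was 0.716%, 1.08% and 1.03%, so that Cd163 was not lowest at day 1. The highest share was that of Plac8-only barcodes at day 5, 1.64% (1.62 to 1.66%) (329). Plac8-only barcodes numbered 3, 20 and 21 at days 0, 1 and 2, too few to describe. Median UMIs at day 5 were 4115, 3261, 4119.5 and 3701 in the Sparc, Cd163, H2-Aa and Plac8 groups, and median mitochondrial shares 2.70%, 2.82%, 2.80% and 2.36%.

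The marker groups were cleanest on the later days. Vsig4, a second lining gene, stood at 3369.6 CPM in Sparc-only and 69.3 CPM in H2-Aa-only barcodes of day 5, but at 2222 and 874 CPM at day 0. The MHC class II chain Cd74 stood at 1240.4 CPM in Sparc-only barcodes of day 0 and 161 CPM at day 5. A single UMI of a marker therefore separated cell types less well at day 0. Ly6c2, of classical monocytes, stood at 645 CPM in the Plac8-only barcodes of day 5 and at 3.76 CPM or less in the Sparc-only and Cd163-only ones.

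**Figure D5:**
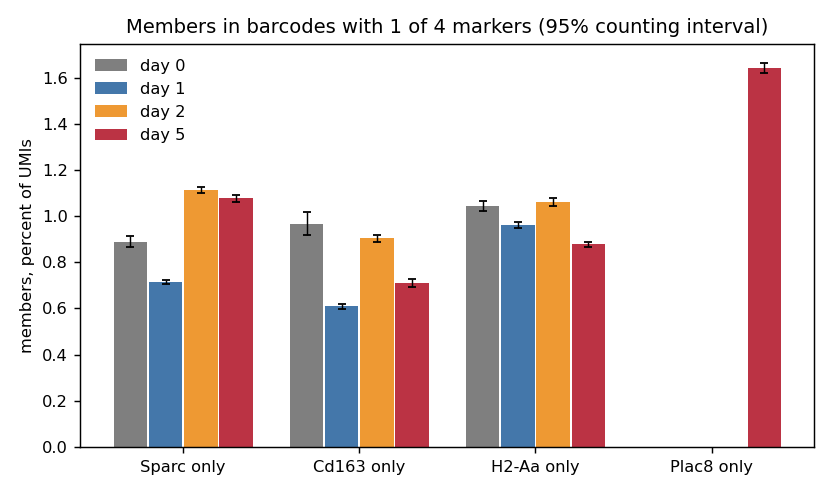
Members as a percent of UMIs (vertical axis from 0, with 95% counting intervals) in barcodes with UMIs of only 1 of 4 markers, 1 bar per day; groups under 50 barcodes are not drawn. The Plac8-only bar of day 5 (1.64%) is the tallest, and the Cd163-only bar of day 1 (0.608%) the lowest.

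At day 5 the Plac8-only barcodes held 2.31-fold (2.25 to 2.37) the member share of Cd163-only barcodes, 1.52-fold that of Sparc-only and 1.87-fold that of H2-Aa-only barcodes. Over Cd163-only barcodes, 18 of 30 measured members were at least 2-fold higher and 3 lower, where 9.23% and 24.9% of all genes were. The members' median log2 ratio was 1.38, beside -0.30 over all genes. Ier3 stood at 1038 CPM in Plac8-only barcodes, 164 in Cd163-only, 260.4 in Sparc-only and 192 in H2-Aa-only barcodes, and was 6.34-fold (5.36 to 7.55) higher than with Cd163. Nfkbia stood at 1839, 452, 572 and 1137 CPM in the same order, Junb at 2312, 586, 1166 and 998 CPM, and Fos at 3318, 1123, 2045 and 1617 CPM. All 4 genes were highest with Plac8. The 3 members at least 2-fold lower than with Cd163 were Klf2, 3.79-fold (2.93 to 4.94), Rhob, 2.34-fold (1.82 to 3.03), and Jund, 2.19-fold (1.72 to 2.79). Over Sparc-only barcodes, 7 of 30 were at least 2-fold higher and 4 lower, beside 10.1% and 21.2% of all genes, and over H2-Aa-only barcodes 8 and 0, beside 5.70% and 12.6%. Klf2 was 6.45-fold (5.14 to 8.20) and Egr1 2.29-fold (1.88 to 2.80) lower than in Sparc-only barcodes. Of the thinned Plac8-only barcodes 39.8% (34.5 to 45.3%) had at least 10 member UMIs, against 17.1%, 10.1% and 16.6% with only Sparc, Cd163 and H2-Aa.

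Sparc-only and Cd163-only barcodes differed in some members on every later day. Sgk1 stood at 172, 177 and 217 CPM in Sparc-only barcodes of days 1, 2 and 5 and at 26.5, 35.1 and 39.8 CPM in Cd163-only ones. It was 6.49-fold (5.09 to 8.37), 5.03-fold (3.8 to 6.79) and 5.46-fold (3.90 to 7.87) higher with Sparc. Nr4a1 was 3.51-fold (2.72 to 4.58), 2.85-fold (2.33 to 3.51) and 2.64-fold (2.01 to 3.5) higher with Sparc on those days. Zfp36l1 ran against them, 1.85-fold (1.69 to 2.04), 1.72-fold (1.54 to 1.92) and 1.63-fold (1.42 to 1.88) lower with Sparc than with Cd163. In all, 3, 3 and 5 of 29 measured members were at least 2-fold higher with Sparc at days 1, 2 and 5, beside 3.34%, 3.73% and 4.71% of all genes, and none was 2-fold lower, beside 3.35%, 3.81% and 7.10%. H2-Aa-only barcodes of day 1 had 10 of 29 members at least 2-fold higher than Cd163-only ones and none lower, beside 4.61% and 5.67% of all genes. At day 2 the same comparison gave 3 of 29 higher and none lower, beside 4.50% and 5.63%, with a median log2 ratio of 0.26 against 0.77 at day 1. The 3 of day 2 were Csrnp1, Tnfaip3 and Gadd45b. At day 5 the comparison gave 6 of 30 higher and 3 lower, the latter Klf2, Rhob and Zfp36l1, beside 6.91% and 13.1%. Among the 10 of day 1 were Tnfaip3, 4.53-fold (3.18 to 6.58), Gadd45b, 3.56-fold (2.49 to 5.17), Atf3, 3.30-fold (2.92 to 3.73), and Nfkbia, 2.65-fold (2.39 to 2.94).

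The difference between days 1 and 2 was also read within each marker group. In Sparc-only barcodes the members' median log2 ratio of day 2 over day 1 was 0.68. Of 29 members 25 lay above the interval and 0 below, beside 376 and 405 of all 7300 genes. At least 2-fold higher were 4, beside 0.452% higher and 0.342% lower of all genes. In Cd163-only barcodes the median was 0.70, with 22 of 29 above and 0 below, beside 375 and 458 of all 7483 genes. At least 2-fold higher were 5, beside 0.748% higher and 1.36% lower. In H2-Aa-only barcodes the median was 0.14, with 9 of 29 above and 0 below, beside 488 and 419 of all 7396 genes. None was 2-fold higher, beside 1.38% higher and 1.81% lower. Atf3 was 2.16-fold (1.99 to 2.35) higher with Sparc and 2.28-fold (1.98 to 2.62) with Cd163, Nr4a1 2.29-fold (2.00 to 2.62) and 2.82-fold (2.09 to 3.83), and Tnfaip3 2.95-fold (2.25 to 3.90) and 2.13-fold (1.37 to 3.31). No member was 2-fold lower in any of the 3. Whether the marker groups differed in this could not be tested with 1 library per day.

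From day 2 to day 5 members were mostly lower in Cd163-only and H2-Aa-only barcodes and went both ways with only Sparc. The whole libraries had a median of -0.014. The H2-Aa-only group leaves out barcodes that also held Plac8 or another of the 4 markers. Over all barcodes with an H2-Aa UMI the member share went from 1.14% to 1.09%, against 1.06% to 0.877% with only H2-Aa. With only Sparc the median log2 ratio was -0.014, with 6 of 29 above and 8 below the interval, beside 527 and 457 of all 7379 genes. At least 2-fold higher were 0 and lower 0, beside 1.87% and 0.569% of all genes. With only Cd163 the median was -0.47, with 3 of 29 above and 14 below the interval, beside 684 and 463 of all 7617 genes. At least 2-fold higher were 0 and lower 1, beside 4.53% and 2.01% of all genes. The gene that was 2-fold lower with Cd163 was Btg2, 2.17-fold (1.75 to 2.71). With only H2-Aa the median was -0.24, with 4 of 30 above and 16 below the interval, beside 1383 and 1269 of all 7496 genes. At least 2-fold higher was 1 and lower were 3, beside 5.64% and 5.52% of all genes. Those lower with H2-Aa were Atf3, 2.1-fold (1.89 to 2.34), Egr2 and Btg2, and the higher one was the scarce Maff.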

How the data were processed

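Single-cell RNA of sorted synovial cells was measured with the Chromium 3′ v2 kit, per the labels, in 4 libraries. The deposited values are UMI counts per gene and barcode, made by the authors, each UMI standing for 1 molecule and not scaled by gene length. The submitters' processing notes name Cell Ranger 2.1.0, Seurat 2.3, R 3.5.2 and mm10, without their roles. Genes are listed in a matrix only where at least 5 of its barcodes hold them, which was tested on the files, and a gene not listed was not read as 0 in ratios.

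Barcodes under 500 genes or with 10% or more mitochondrial UMIs were removed, doublets were left in, and counts were summed per library or marker group with Python 3.11.15, NumPy 2.4.6, SciPy 1.17.1 and pandas 2.3.3. Ratios of CPM carry exact conditional Poisson intervals and shares Clopper-Pearson intervals, at 95%, which cover counting error only. In a ratio a count of 0 was set to 3 counts. A gene was measured where both of the libraries compared list it and 1 of them holds 10 CPM or more, and at least 2-fold was called. Spread was read after thinning to 500 UMIs, and the steps were tested on simulated data. With 1 library per day there was no test.

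Named with full values were members with at least 50 CPM in a library and a 2-fold difference between days (Ier3, Ier5, Gadd45b, Nfkbia and Tnfaip3) and the 10 of highest mean CPM (Fos, Junb, Dusp1, Klf6, Nfkbia, Jun, Zfp36, Ier2, Atf3 and Ier3), and from other lists the largest ratios among genes of at least 50 CPM. Further members are given by role and were named after their values were seen. The members and lists were chosen with earlier results of these data known. Alternatives changed the gene, mitochondrial and depth filters, the weights, the scaling, the low-level filter, the marker call and the thinning. Promoter sequences came from RefSeq (GRCm38.p6).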

Additional observations from a re-analysis of the deposited data

Results flagged for a closer look

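The day 0 library held 3760 barcodes under 500 genes, which no comparison used, and members were present in them. They gave 24734 of 2686295 UMIs, a share of 0.921% (exact binomial interval 0.909 to 0.932%, counting error only), beside 0.986% in the barcodes kept at day 0. No control library exists against which to set it, and the part of free RNA in it was not tested.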

How the results depend on the processing

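The day 1 library had the lowest member share under all alternatives tried, 0.716 to 0.807%, against 0.926 to 1.19% for the other days. Of 226 recomputed values for whole libraries, marker groups, spread and AP-1 groups, 133 stayed within their error or, for counts, within 1.5 times, 85 moved by more and 8 changed sign. The sign changes were those of medians near 0 at days 2 and 5. The alternatives without Plac8 UMIs and those for AP-1 groups were chosen after the data were seen, and the cause of each move was not tested. Called means at least 2-fold. With at least 1000 genes the day 0 library kept 96 barcodes, and thinning to 1000 UMIs left out 1509 of its barcodes. No paired analysis was possible because each day has 1 library, and for the same reason no library could be left out.

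With at least 200 genes per barcode, the share over a whole library was 0.961% (day 0). In marker groups the share was 1.02% (H2-Aa day 0). With at least 1000 genes, the share over a whole library was 1.11% (day 0), 0.716% (day 1), 1.05% (day 2) and 1.08% (day 5) and the median log2 ratio -0.67 (day 1 over day 0), -0.17 (day 2 over day 0), -0.13 (day 5 over day 0) and 0.0032 (day 5 over day 2). Members called higher numbered 1 (day 2 over day 0) and 2 (day 5 over day 0). Members called lower numbered 3 (day 2 over day 0) and 1 (day 5 over day 0). In marker groups the share was 0.549% (Cd163 day 1), 0.908% (H2-Aa day 1), 0.868% (Cd163 day 2), 1.01% (H2-Aa day 2) and 0.854% (H2-Aa day 5). In AP-1-rich over AP-1-free barcodes, a setting added later, the other 28 members stood at 2.04-fold at day 0 and 4.17-fold at day 1. With under 5% mitochondrial UMIs, the share over a whole library was 0.959% (day 0), 0.741% (day 1), 1.06% (day 2) and 1.10% (day 5). Members called higher numbered 1 (day 2 over day 0). In marker groups the share was 0.859% (Sparc day 0), 0.914% (Cd163 day 0), 0.595% (Cd163 day 1), 0.873% (Cd163 day 2) and 0.679% (Cd163 day 5). Without the 5% of barcodes with most UMIs, the share over a whole library was 0.972% (day 0), 0.761% (day 1), 1.10% (day 2) and 1.17% (day 5) and the median log2 ratio 0.17 (day 5 over day 0) and 0.073 (day 5 over day 2). Members called higher numbered 1 (day 5 over day 2). In marker groups the share was 0.730% (Sparc day 1), 0.993% (H2-Aa day 1), 1.14% (Sparc day 2), 0.922% (Cd163 day 2), 1.17% (H2-Aa day 2), 1.00% (H2-Aa day 5) and 1.75% (Plac8 day 5). With each barcode weighted equally, the share over a whole library was 0.964% (day 0), 0.807% (day 1), 1.16% (day 2) and 1.19% (day 5) and the median log2 ratio -0.35 (day 1 over day 0), 0.28 (day 2 over day 0) and 0.19 (day 5 over day 0). Members called lower numbered 3 (day 1 over day 0) and 0 (day 2 over day 0). Members called higher numbered 1 (day 2 over day 0), 1 (day 2 over day 1) and 1 (day 5 over day 2). With barcodes that held a Plac8 UMI taken out of day 5 only, also added later, the share over a whole library was 0.926% (day 5). The median log2 ratio was -0.15 (day 5 over day 0) and -0.23 (day 5 over day 2). Members called lower numbered 1 (day 5 over day 0). Members called higher numbered 0 (day 5 over day 2). With median-ratio scaling, the median log2 ratio was -0.63 (day 1 over day 0), -0.026 (day 2 over day 0), -0.10 (day 5 over day 0) and 0.023 (day 5 over day 2). Members called lower numbered 2 (day 2 over day 0) and 1 (day 5 over day 0). With no filter on low levels, members at least 2-fold lower numbered 2 (day 2 over day 0) and 1 (day 5 over day 0). With the marker read after thinning, the share in marker groups was 1.06% (Cd163 day 0), 1.07% (H2-Aa day 0), 0.671% (Sparc day 1), 0.638% (Cd163 day 1), 1.02% (H2-Aa day 1), 1.03% (Sparc day 2), 0.967% (Cd163 day 2), 1.21% (H2-Aa day 2), 1.02% (Sparc day 5) and 1.13% (H2-Aa day 5). With at least 2 UMIs of the marker, the share in marker groups was 1.08% (H2-Aa day 0), 0.562% (Cd163 day 1), 1.07% (H2-Aa day 1), 0.815% (Cd163 day 2), 1.10% (H2-Aa day 2), 0.616% (Cd163 day 5), 0.895% (H2-Aa day 5) and 1.71% (Plac8 day 5). With no thinning, barcodes with at least 2% member UMIs made up 6.16% (day 0), 8.70% (day 1), 17.7% (day 2) and 19.3% (day 5). With thinning to 1000 UMIs, barcodes with at least 2% member UMIs made up 7.66% (day 0).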
